A study of Mus musculus with 16 samples.

Results

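The regions described here are 542 of the 8672 H2AK119ub1 peaks of wild type mouse embryonic stem cells (ES), or 6.25% of them. Each overlapped a H2AK119ub1 peak of PCGF5-depleted neural precursor cells (NPC) by at least 1 bp and touched no H2AK119ub1 peak of wild type NPC. The 10 peak lists of the series held 86279 peaks in all. The opposite choice, ES peaks that a wild type NPC peak overlapped but no PCGF5-depleted NPC peak did, gave 663 peaks, or 7.65%, and serves as the comparison below. Another 762 ES peaks were found again in both NPC lists and 6705 in neither. Over all ES peaks, PCGF5-depleted NPC overlapped 15.0% and wild type NPC 16.4%. Members were thus chosen by the measured H2AK119ub1 peaks of wild type ES and both NPC libraries, and the presence or absence of NPC H2AK119ub1 on a member is the rule itself and no finding.

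Peaks came from chromatin immunoprecipitation and sequencing (ChIP-seq) with 1 library per group, so no replicate error could be had and no test between conditions was made. Wild type ES were grown on inactivated mouse embryo fibroblasts with serum, LIF and 2 kinase inhibitors (2i), and wild type NPC were collected after 6 days of neural differentiation in suspension. The PCGF5-depleted groups of both stages carry the genotype shPCGF5 in the labels, a short hairpin RNA against Pcgf5. The methods describe lentiviral hairpins in an ES line with a GFP reporter in Sox1, from which clusters were picked after puromycin selection, and they also describe a nuclease knockout, so the labels alone decide the name used here. H2AK119ub1 and H3K27me3 were profiled in all 4 of these groups. PCGF5 itself was profiled in ES and NPC through a 3× Flag tag knocked into the gene, in cells without depletion. No expression was measured in these libraries, so the ES and NPC labels could not be checked by marker genes, and how much chromatin of the ES libraries came from the feeder fibroblasts was not measured. The files hold no read totals, so the depth behind each list is unknown.

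Polycomb repressive complex 1 (PRC1) places a single ubiquitin on a lysine of histone H2A, giving H2AK119ub1, through the ligases RING1A and RING1B. The PCGF subunit sets which PRC1 variant is formed, and PCGF5 belongs to a variant without the CBX subunits that read H3K27me3. Polycomb repressive complex 2 (PRC2) trimethylates a lysine of histone H3. In ES both marks sit on CpG-rich promoters of developmental genes that are silent or barely transcribed, and during neural differentiation many of these promoters either keep the marks or shed them as a lineage is chosen.

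Sequence of the members ranged from CpG-rich single-copy sequence to repeats with hardly any CG, and examples are printed here. The stretches below come from the 10 widest members and from the 10 with the highest fold in PCGF5-depleted NPC, on the forward strand of NCBIM37 (mm9), outside untranslated regions, with each CG in capitals. They lie at chr5:102092470-102092769 (Nkx6-1, over a coding exon), chr7:150645533-150645832 (Cdkn1c, over a coding exon), chr17:27648856-27649155 (Grm4, within the gene and outside exons), chr5:34065292-34065591 (Fgfr3, within the gene and outside exons), chr7:53653260-53653559 (Kcnc1, over a coding exon), chr19:54120705-54120824 (Adra2a, over the coding exon), chr1:89050893-89051086 (Ecel1, over a coding exon) and chr9:121133271-121133570 (an intron of Ulk4). The Kcnc1 stretch held 37 CG in 300 bases and the Ulk4 stretch 1 in 300.
Nkx6-1: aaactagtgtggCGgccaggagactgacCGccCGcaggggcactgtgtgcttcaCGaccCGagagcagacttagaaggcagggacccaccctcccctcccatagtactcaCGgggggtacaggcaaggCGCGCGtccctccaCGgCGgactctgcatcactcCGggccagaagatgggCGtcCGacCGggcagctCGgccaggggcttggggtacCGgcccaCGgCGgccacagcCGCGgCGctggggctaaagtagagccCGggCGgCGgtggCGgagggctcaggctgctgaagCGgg
Cdkn1c: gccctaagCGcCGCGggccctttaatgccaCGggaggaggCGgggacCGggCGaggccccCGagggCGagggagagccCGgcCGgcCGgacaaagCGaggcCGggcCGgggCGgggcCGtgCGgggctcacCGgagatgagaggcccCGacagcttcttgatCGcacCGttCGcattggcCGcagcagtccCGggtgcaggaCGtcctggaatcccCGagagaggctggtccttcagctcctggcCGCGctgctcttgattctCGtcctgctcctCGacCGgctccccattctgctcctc
Grm4: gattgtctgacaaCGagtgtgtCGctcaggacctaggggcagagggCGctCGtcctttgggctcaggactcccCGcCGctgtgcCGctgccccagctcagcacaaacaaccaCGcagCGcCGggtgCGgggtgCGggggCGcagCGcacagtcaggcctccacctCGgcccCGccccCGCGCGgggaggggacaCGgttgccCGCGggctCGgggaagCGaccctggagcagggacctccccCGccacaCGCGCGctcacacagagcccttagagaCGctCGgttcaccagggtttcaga
Fgfr3: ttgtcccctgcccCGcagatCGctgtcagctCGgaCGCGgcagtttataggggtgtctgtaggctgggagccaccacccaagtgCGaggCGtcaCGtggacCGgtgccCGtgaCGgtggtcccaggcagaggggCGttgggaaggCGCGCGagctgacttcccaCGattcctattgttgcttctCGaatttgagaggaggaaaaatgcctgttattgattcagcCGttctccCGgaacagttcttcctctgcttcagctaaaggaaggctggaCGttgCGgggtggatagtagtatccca
Kcnc1: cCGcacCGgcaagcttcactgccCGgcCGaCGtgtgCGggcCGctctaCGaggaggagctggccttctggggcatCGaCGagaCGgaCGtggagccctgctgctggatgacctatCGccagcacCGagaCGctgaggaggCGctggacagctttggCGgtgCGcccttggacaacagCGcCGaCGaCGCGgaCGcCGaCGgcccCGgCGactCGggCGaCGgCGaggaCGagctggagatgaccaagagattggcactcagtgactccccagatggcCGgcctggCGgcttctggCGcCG
Adra2a: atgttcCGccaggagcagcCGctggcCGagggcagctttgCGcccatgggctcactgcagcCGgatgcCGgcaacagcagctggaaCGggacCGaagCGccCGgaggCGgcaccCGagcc
Ecel1: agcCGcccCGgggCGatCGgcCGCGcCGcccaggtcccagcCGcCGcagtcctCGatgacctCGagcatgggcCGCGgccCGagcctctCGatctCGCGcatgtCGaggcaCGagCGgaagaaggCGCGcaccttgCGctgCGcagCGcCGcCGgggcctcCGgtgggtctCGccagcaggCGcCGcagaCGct
Ulk4: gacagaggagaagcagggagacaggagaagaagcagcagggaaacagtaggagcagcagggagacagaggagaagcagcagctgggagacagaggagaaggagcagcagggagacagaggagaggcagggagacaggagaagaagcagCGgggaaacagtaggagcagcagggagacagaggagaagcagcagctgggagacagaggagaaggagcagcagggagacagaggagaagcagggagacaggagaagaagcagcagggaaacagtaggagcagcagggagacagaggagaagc

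The last pair comes from a tandem array on chromosome 6 that held more members than any other place. Copy a is the whole member with the highest PCGF5-depleted NPC fold in the array, at chr6:114553009-114553169, and copy b is the stretch most like it, at chr6:114511239-114511399, chosen after its values were seen. Capitals here mark the base of copy b that differs from copy a, 1 of 161 bases.
array copy a: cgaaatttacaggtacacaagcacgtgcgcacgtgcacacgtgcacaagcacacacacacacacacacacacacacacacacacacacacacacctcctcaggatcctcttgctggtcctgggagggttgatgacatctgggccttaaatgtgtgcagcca
array copy b: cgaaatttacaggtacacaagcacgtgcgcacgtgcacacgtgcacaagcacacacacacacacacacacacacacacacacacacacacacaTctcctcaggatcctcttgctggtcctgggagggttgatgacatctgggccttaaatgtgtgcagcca
Copy a had no H2AK119ub1 peak in wild type NPC and copy b had one, while both were overlapped by the remaining H2AK119ub1 lists and by all 4 H3K27me3 lists.

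As ES peaks, the members had a higher median width and fold than the list they came from. Their median width was 307 bp (quartiles 212 and 508 bp), against 217 bp for all ES peaks, 248 bp for the reverse set and 412 bp for peaks found in both NPC lists. The median fold over background, the ratio that the peak caller gives, was 4.90 for members and 4.61 for all ES peaks. The 552 PCGF5-depleted NPC peaks that lay on members had a median fold of 4.52, below the 4.91 of their whole list of 3845 peaks, and a median width of 259.5 bp. Shared sequence ran from 1 to 2005 bp with a median of 179.5 bp, and in 342 members it covered at least 50% of the ES peak. At the edge of the rule stood a peak near Grm2 that shared 1 bp with PCGF5-depleted NPC and a peak at Vax1 that missed it by 2 bp. On the other side, a peak 4125 bp from the start of Lhx2 was a member because the nearest wild type NPC peak was 8 bp away, and a peak at Wnt7b was none because 1 bp was shared.

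GC content and CpG density set the members apart from the reverse set. The median GC content was 62.4% in members, 55.4% in the reverse set and 57.8% over all ES peaks. CpG dinucleotides reached 0.50 of the number that base composition predicts in members (observed over expected), 0.34 in the reverse set and 0.21 over all ES peaks. The composition of a CpG island (GC content of at least 50% with an observed over expected value of at least 0.6) was met by 215 members, 39.7% (95% Wilson interval 35.6 to 43.8), against 13.8% of all ES peaks. It was met by 18.4% of the reverse set (15.6 to 21.5) and by 40.6% of the peaks found in both NPC lists. All intervals cover counting error only, and peaks close together are not independent.

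A second feature was repeated sequence. A peak was counted as repeated when over 50% of its 24-base words occurred more than once in the genome. This held for 214 members, 39.5% (35.5 to 43.7), against 22.2% of all ES peaks and 7.39% of the reverse set (5.64 to 9.64). Of these 214 members, 78 lay in the chromosome 6 array and 136 elsewhere, where the median word had 2 to 10 copies in 36 members, 11 to 100 in 52 and over 100 in 48. Among those 136, 71 held no CG at all, against 7 of the 328 members in unique sequence. The median CpG observed over expected was 0 in these 136 members. It was also 0 in all 1775 repeated ES peaks outside the array and in the 49 of the reverse set, so this was not particular to members. The 328 unique members had a median GC content of 65.1% and 199 of them (60.7%, 55.3 to 65.8) had CpG island composition. Reads from repeats align to more than 1 place, and the part of alignment in the lists over repeats was not tested, so the shares below are also given for the unique members. Shares over all ES peaks and over the reverse set include repeats, except where unique sequence is named.

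**Figure D1:**
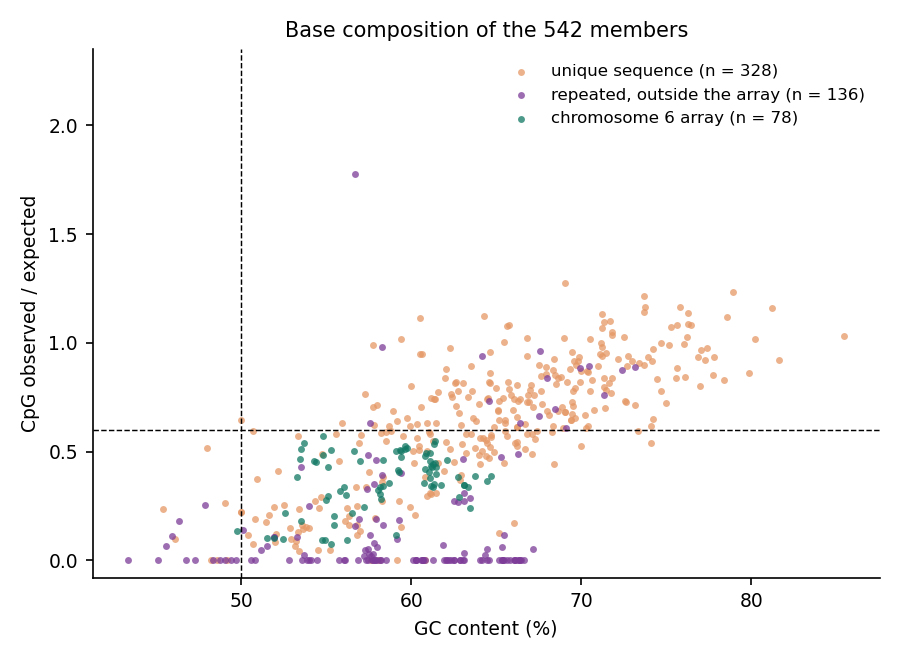
Each point is 1 of the 542 members, with GC content (%) on the x axis and CpG observed over expected on the y axis, and dashed lines mark the limits of CpG island composition. Of the unique members (n = 328), 199 lie within both limits, at the upper right, members of the array (n = 78) lie below 0.6 on the y axis, and 71 of the 136 other repeated members lie at 0.

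The array lies on chromosome 6 between Hrh1, a histamine receptor gene, and Atg7, an autophagy gene, in a space without protein-coding genes (chr6:114433291-114593148). It was noticed after the values were seen. Its 62 units of 2334 to 2521 bp (median 2440 bp) made 94.4% of the 24-base words repeat within it, against 2.17% in a stretch of the same length upstream. Wild type ES had 147 H2AK119ub1 peaks there. Of these, 78 were members, 11 were found in both NPC lists, 58 in neither and 0 in the reverse set.

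Of the 4 H2AK119ub1 libraries, wild type NPC had by far the fewest peaks on the array, which the rule favours. There were 147 H2AK119ub1 peaks over 49390 bp in wild type ES, 124 over 44629 bp in PCGF5-depleted ES, 12 over 2478 bp in wild type NPC and 99 over 26796 bp in PCGF5-depleted NPC. H2AK119ub1 marked 61, 58, 12 and 54 of the 62 units in that order. For H3K27me3 the counts were 141 peaks over 48403 bp in wild type ES, 144 over 69352 bp in PCGF5-depleted ES, 49 over 16737 bp in wild type NPC and 130 over 51380 bp in PCGF5-depleted NPC. Wild type NPC also had the fewest H3K27me3 peaks. The H3K27me3 lists were not used by the rule, but how far they follow the choice by H2AK119ub1 was not tested. The 12 H2AK119ub1 peaks of wild type NPC were all centred 1600 to 2000 bp into a unit, the same part of the unit each time. Of the other H2AK119ub1 peaks, 26 of 147 in wild type ES, 30 of 124 in PCGF5-depleted ES and 34 of 99 in PCGF5-depleted NPC were centred there. For H3K27me3 in wild type NPC it was 19 of 49. Neither Flag-PCGF5 list had a peak on the array. The units share their sequence and cannot count as separate sites, and 1 library per group gives no measure of how often such a difference arises between cultures.

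**Figure D2:**
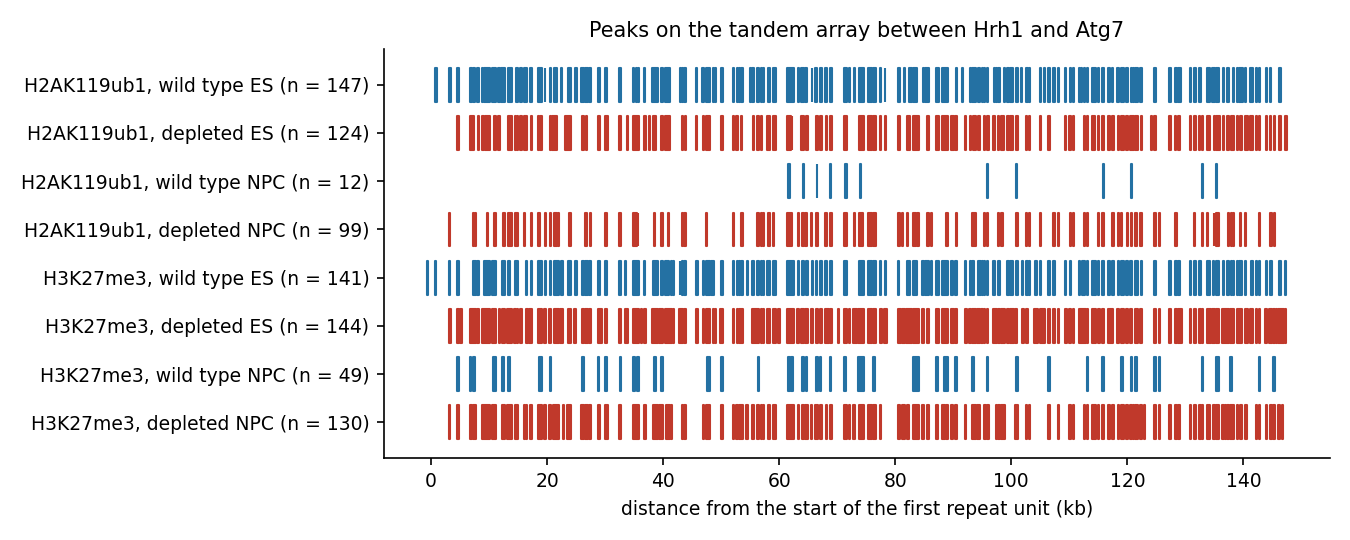
Each bar is a peak on the array, placed by its distance in kb from the start of the first repeat unit, with 1 row per list, wild type in blue and PCGF5-depleted in red. The wild type NPC rows hold 12 H2AK119ub1 and 49 H3K27me3 peaks, against 99 and 130 in PCGF5-depleted NPC.

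When members within 50000 bp were joined, 7 blocks held at least 6 members each and 122 members in all, and 236 members stood alone. After the array came a block of 10 near Gas8 (chr8:126080782-126144199), 8 in an intron of Ulk4 (chr9:121129302-121142495), 7 at Dux on chromosome 10, 7 at Sfi1 on chromosome 11, and 6 each around Speg and Accn4 and at Fcgr3 on chromosome 1. Dux, a double homeobox gene that lies in repeated copies, had 5 members at its promoter. Its promoter windows held 7 H2AK119ub1 peaks in wild type ES, 7 in PCGF5-depleted ES, 0 in wild type NPC and 6 in depleted NPC, and 7, 7, 1 and 6 H3K27me3 peaks in that order. The Ulk4 block had 13, 14, 1 and 11 H2AK119ub1 peaks, with wild type NPC lowest there as well. The block near Gas8 differed in the number of H2AK119ub1 peaks, 43, 62, 59 and 75, and its members lay between the many wild type NPC peaks. In bases, however, wild type NPC was lowest there too, with 54268, 43731, 21805 and 35880 bp in the same order. Blocks were joined from members, so low H2AK119ub1 of wild type NPC in them is in part set by the rule. All members of the blocks near Gas8, at Ulk4 and at Dux lay in repeated sequence. At Sfi1 each Flag-PCGF5 list held 2 very wide peaks, 67220 bp in all in ES and 72101 bp in NPC, while H3K27me3 covered 2647 bp in wild type ES and 268 bp in PCGF5-depleted NPC. Of the 7 members at Sfi1, 6 were in unique sequence, and the median CpG observed over expected of the 7 was 0.068. The reverse set made 15 such blocks with 168 peaks, led by the Hoxa cluster with 29, Hoxd and Evx2 with 22 and Hoxb with 21.

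H3K27me3 was found on most members, and most often in PCGF5-depleted NPC. In wild type ES 428 members (79.0%, 75.3 to 82.2) were overlapped by H3K27me3, against 38.8% of all ES peaks. In PCGF5-depleted ES the count was 346 (63.8%, 59.7 to 67.8), against 26.4% of all. In wild type NPC it was 361 (66.6%, 62.5 to 70.4), against 32.0%, and in PCGF5-depleted NPC 458 (84.5%, 81.2 to 87.3), against 35.8%. The reverse set stood at 46.9%, 38.5%, 93.5% and 86.9% in the same order. Unique members stood at 75.3% in wild type ES and 57.6% in PCGF5-depleted ES. From wild type to PCGF5-depleted ES the share differed by -15.1 percentage points for members, by -8.45 for the reverse set and by -12.4 over all ES peaks. From wild type to PCGF5-depleted NPC it differed by 17.9, -6.64 and 3.78. Members therefore exceeded the reverse set in both ES lists and lay below it in wild type NPC. The sets were chosen by opposite H2AK119ub1 calls in the NPC libraries. How far that choice sets their H3K27me3 shares in NPC was not tested.

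Member by member, 348 had H3K27me3 in both NPC lists, 110 in PCGF5-depleted NPC alone, 13 in wild type NPC alone and 71 in neither. In the reverse set these counts were 562, 14, 58 and 29. Of the 110 members, 50 lay in the array, 28 in other repeats and 32 in unique sequence. In the array 26 of 78 members had H3K27me3 in wild type NPC and 76 in depleted NPC. In unique sequence the shares came closer to each other, 84.1% (79.8 to 87.7) in wild type NPC and 91.5% (87.9 to 94.0) in PCGF5-depleted NPC, with 8 members marked in wild type NPC alone. Thus 276 of the 328 unique members, which by the rule had no H2AK119ub1 peak in wild type NPC, had an H3K27me3 peak there. Over all ES peaks, repeats included, the share with H3K27me3 in wild type NPC was 32.0%. For all ES peaks in unique sequence this share is not given here.

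H2AK119ub1 in PCGF5-depleted ES overlapped 293 members (54.1%, 49.8 to 58.2), against 25.2% of all ES peaks and 53.5% of the reverse set. For the unique members it was 43.9%, and in the array 68 of 78. PCGF5 itself lay on few members in ES and on more in NPC, and its lists held 653 and 12013 peaks. Flag-PCGF5 overlapped 10 members in ES (1.85%, 1.01 to 3.36), against 0.438% of all. Of these 10, 7 were the members at Sfi1 under 2 wide Flag-PCGF5 peaks, and outside that block 3 of 535 members were left (0.561%, 0.191 to 1.64). Unique members overlapped by Flag-PCGF5 in ES numbered 7, of which 6 were at Sfi1. In NPC Flag-PCGF5 overlapped 53 members (9.78%, 7.55 to 12.6), against 4.72% of all, and 46 outside the Sfi1 block (8.60%, 6.51 to 11.3). Of those 53, 47 were in unique sequence (14.3% of the unique members, 10.9 to 18.5), and the reverse set had 24 (3.62%, 2.44 to 5.33). The members had a higher median width than the reverse set and all ES peaks, and the part of width in these shares was not tested.

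**Figure D3:**
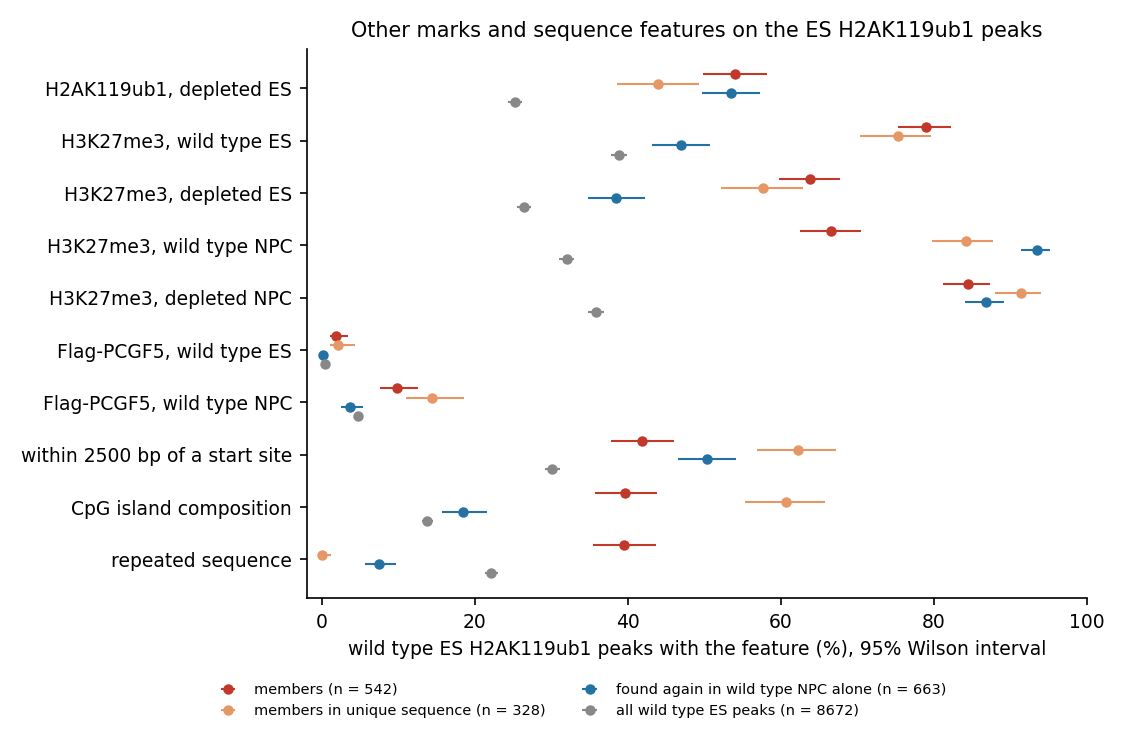
Points give the share of ES H2AK119ub1 peaks (%) with each feature and bars its 95% Wilson interval, for members, unique members, the reverse set and all ES peaks. Members lie at 66.6% for H3K27me3 in wild type NPC and at 84.5% in PCGF5-depleted NPC, while the reverse set lies at 93.5% and 86.9%.

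The distance from a member to the nearest wild type NPC H2AK119ub1 peak comes from a list that the rule used and is given as a description. Of the members, 182 (33.6%) had such a peak within 1000 bp, and the median gap was 5530.5 bp. Of the reverse set, 354 (53.4%) had a PCGF5-depleted NPC peak within 1000 bp, with a median gap of 872 bp. In unique sequence the sets came closer, with 45.4% of members (40.1 to 50.8) and 56.7% of the reverse set (52.7 to 60.5) within 1000 bp, and median gaps of 1448 and 754 bp. The wild type NPC list is the longer one, with 5754 peaks against 3845.

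**Figure D4:**
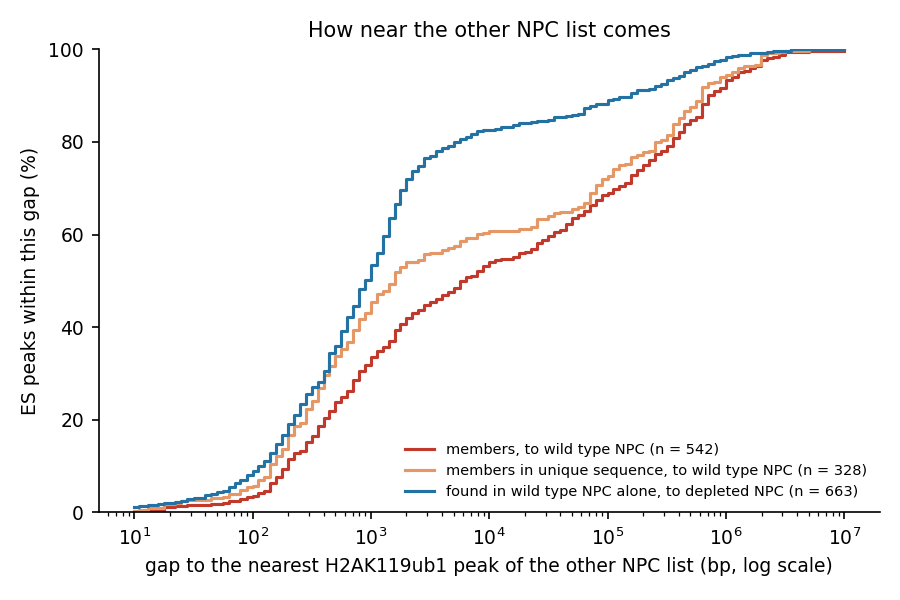
Lines give the share of ES peaks (%) that had a H2AK119ub1 peak of the other NPC list within the gap on the x axis (bp, log scale). The reverse set runs above the members, with 53.4% against 33.6% at 1000 bp, and the unique members lie between at 45.4%, where the reverse set in unique sequence, not drawn, has 56.7%.

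Promoters, meaning a peak centre at most 2500 bp from where a protein-coding transcript begins, held 227 members (41.9%, 37.8 to 46.1), against 30.1% of all ES peaks and 50.4% of the reverse set. Of the unique members 204 (62.2%, 56.8 to 67.3) were at promoters, and of those in the array 0. These promoters belonged to 195 genes. At 111 of them (56.9%) wild type NPC had a H2AK119ub1 peak elsewhere in the promoter window, against 37.0% of the 1488 genes with an ES H2AK119ub1 peak at the promoter, and at 84 it had none. Of those 84 genes, 70 (83.3%, 73.9 to 89.8) had promoter H3K27me3 in wild type NPC, against 69.4% of the 1488 genes, and 75 (89.3%, 80.9 to 94.3) in PCGF5-depleted NPC, against 74.4%. In ES 79 (94.0%) had H3K27me3 in wild type cells, against 79.8%, and 73 (86.9%) in PCGF5-depleted cells, against 72.6%. H2AK119ub1 in PCGF5-depleted ES marked 58 (69.0%, 58.5 to 77.9), against 48.8%. Flag-PCGF5 in NPC marked 19 (22.6%, 15.0 to 32.6), which was near the 22.2% of the 1488 genes. Among the 938 of these genes that, like the 84, had no wild type NPC H2AK119ub1 peak, H3K27me3 was found at 53.0% in wild type NPC and 59.8% in PCGF5-depleted NPC, and H2AK119ub1 in PCGF5-depleted ES at 33.4%.

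Genes with a member and genes with a reverse peak were counted by family, and 41 genes had both. Over all 1488 genes with an ES peak at the promoter, 13.1% had a member and 16.5% a reverse peak. HOX cluster genes, which pattern the body axis, numbered 1 among genes with a member (Hoxa2) and 23 among genes with a reverse peak, of 31 with any ES peak. Other homeobox factors of regional identity numbered 24 and 45 of 81, with 10 genes in both counts, and GATA factors 0 and 3 of 5. Over all families of transcription factors listed, 40 of the 195 member genes (20.5%) and 92 of the 245 reverse genes (37.6%) were such factors, against 12.2% of the 1488 genes with an ES peak. Of the member genes with a member in unique sequence, 40 of 180 were such factors. FGF ligands and receptors numbered 4 member genes and 1 reverse gene of 7, and the TGF-β superfamily 3 and 1 of 12. Neurotransmitter receptors numbered 5 and 5 of 17. Wnt ligands and antagonists numbered 4 and 6 of 14, axon guidance genes 4 and 3 of 21, potassium channels 2 and 5 of 28 and collagens 0 and 0 of 11. Counts of the remaining families are not given here. The lists were written with earlier results of these data known and carry no test.

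Of the 40 factor genes with a member, 37 also had a wild type NPC H2AK119ub1 peak at the promoter. Pax7, a paired box factor of dorsal progenitors, had 4 members, and its promoter held 2107 bp of H2AK119ub1 in wild type ES, 3891 bp in PCGF5-depleted ES, 2300 bp in wild type NPC and 1489 bp in depleted NPC. Nkx6-1, a homeobox factor of the ventral neural tube, held the widest member, 2843 bp, and its promoter had 3173, 1848, 520 and 1323 bp of H2AK119ub1 in the same order. En2, a homeobox factor of the midbrain and hindbrain border, had 300, 916, 1904 and 2060 bp. At these genes a part of the promoter met the rule and another part was marked in wild type NPC.

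The 3 genes of the factor lists with a member and no wild type NPC peak were Irx5, Sox11 and Foxf2. Dux and Tox2, which also had a member and no such peak, are not on these lists. Irx5 is an Iroquois homeobox factor. Its promoter held 1888 bp of H2AK119ub1 in wild type ES, 1400 bp in PCGF5-depleted ES, 0 in wild type NPC and 1131 bp in depleted NPC. H3K27me3 at Irx5 covered 1762, 764, 1107 and 2013 bp in the same order, and Flag-PCGF5 covered 2143 bp in NPC. Sox11, an HMG-box factor of neural progenitors and young neurons, had 433, 0, 0 and 256 bp of H2AK119ub1. It was the 1 gene of the 15 named here and below with no H3K27me3 peak in wild type NPC, where H3K27me3 covered 1088, 1375, 0 and 713 bp. Foxf2, a forkhead factor of mesenchyme, had 1645, 1337, 0 and 2115 bp of H2AK119ub1, and its H3K27me3 in wild type NPC covered 7665 bp.

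Signalling genes made up 6 of the 15 listed genes without a wild type NPC H2AK119ub1 peak. Among the ligands, Bmp6, of the TGF-β superfamily, had 454 bp in wild type ES, 609 bp in PCGF5-depleted ES, 0 in wild type NPC and 671 bp in depleted NPC, and its H3K27me3 covered 2628 bp in wild type and 2738 bp in PCGF5-depleted NPC. Wnt2b had 1146, 967, 0 and 881 bp of H2AK119ub1. Among the inhibitors, Smad6, which blocks the signal of BMP receptors, had 825, 0, 0 and 592 bp, and Sfrp1, a secreted antagonist of Wnt, had 178, 363, 0 and 621 bp. Sfrp1 was the 1 of the 15 with no H3K27me3 in either ES list. The FGF receptors stood apart from each other in H3K27me3. Fgfr3 had 2498, 1937, 0 and 783 bp of H2AK119ub1 and 2983 bp of H3K27me3 in wild type NPC, whereas Fgfr2 had 2235, 945, 0 and 177 bp of H2AK119ub1, 237 bp of H3K27me3 in wild type NPC and 2371 bp of Flag-PCGF5 in NPC.

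The other 6 listed genes serve neurons and their contacts. The adrenergic receptor gene Adra2a had 629 bp of H2AK119ub1 in wild type ES, 301 bp in PCGF5-depleted ES, 0 in wild type NPC and 664 bp in depleted NPC, where the peak had a fold of 8.91, among the highest on members. Grm4, a metabotropic glutamate receptor, had 2401, 1239, 0 and 1173 bp, and Grin2c, a subunit of NMDA receptors, 769, 1332, 0 and 837 bp. Cacna1g, a T-type calcium channel, had 1241, 375, 0 and 215 bp. Adra1d, another adrenergic receptor, and the protocadherin Pcdhgc5 complete the list. In the 15 genes together, H3K27me3 was present in 14 in wild type ES, 14 in wild type NPC and 15 in depleted NPC, H2AK119ub1 in 12 in PCGF5-depleted ES, and Flag-PCGF5 in 7 in NPC and 1 in ES. Over the 1488 genes with an ES peak these marks were at 79.8%, 69.4%, 74.4%, 48.8%, 22.2% and 1.14% in the same order, and counts over 15 listed genes are too few to set against them.

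**Figure D5:**
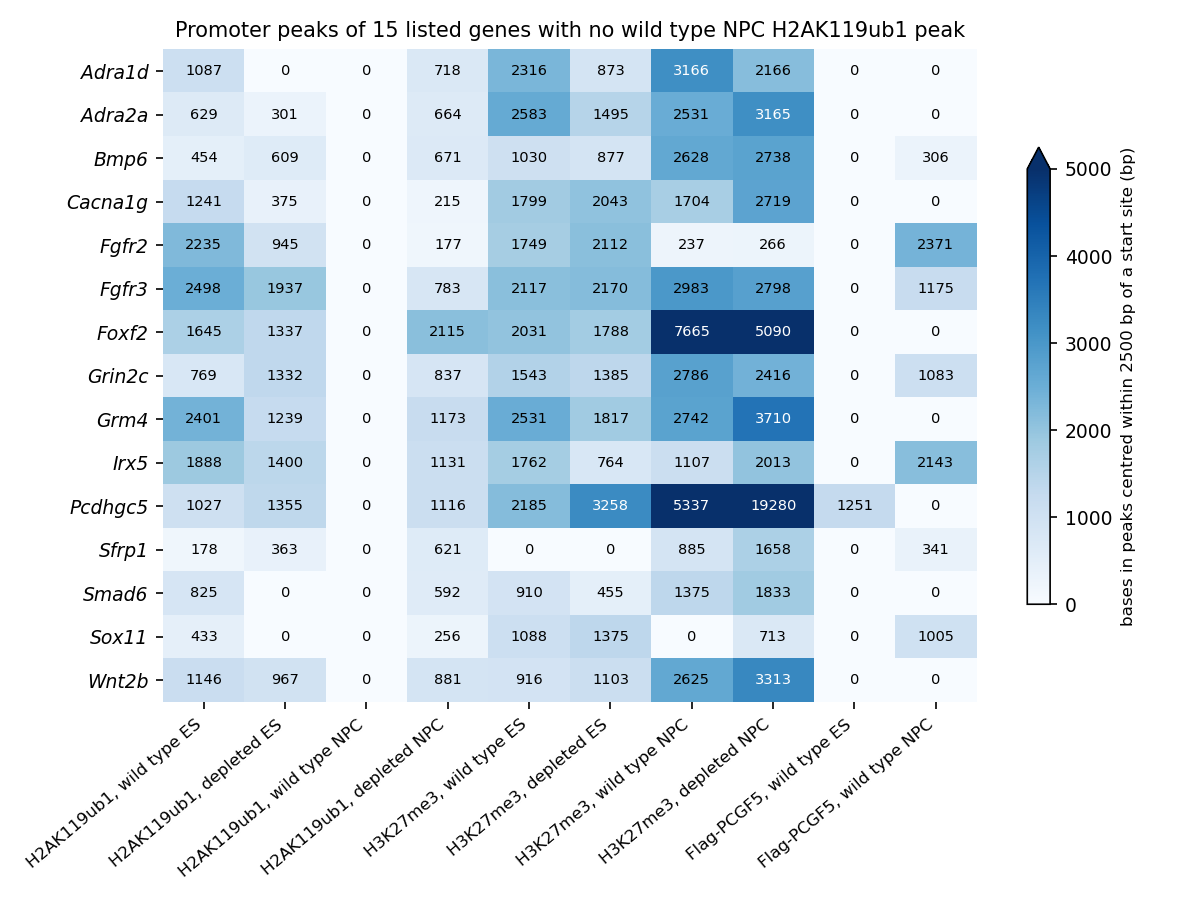
Cells give, for 15 listed genes with a member and no wild type NPC H2AK119ub1 peak, the bases (bp) in promoter peaks of each of the 10 lists, with darker blue for more bases up to 5000. The wild type NPC H2AK119ub1 column is 0 by the rule, and the wild type NPC H3K27me3 column is 0 for Sox11 alone.

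Among genes with the strongest or widest members was Kcnc1, a voltage-gated potassium channel of fast-firing neurons, with the highest PCGF5-depleted NPC fold on a member, 9.61. A wild type NPC peak lay 13 bp from that member, and the Kcnc1 promoter held 792 bp of H2AK119ub1 in wild type NPC. Ecel1, a neuronal membrane protease, had 3 members and 1073, 935, 0 and 989 bp of H2AK119ub1 in wild type ES, PCGF5-depleted ES, wild type NPC and PCGF5-depleted NPC. The imprinted genes Cdkn1c, an inhibitor of cyclin-dependent kinases, and Igf2, a growth factor, also carried members. Cdkn1c had 1775, 1269, 0 and 632 bp, while Igf2 had 4746, 1870, 3118 and 2558 bp with 2 members and 2 reverse peaks. The second widest member, 2005 bp at chr17:39981234-39983238, lay outside protein-coding genes, and genes of other kinds were not looked at there.

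Muc19, a mucin gene, and Tox2, an HMG-box gene, held other wide members and had no wild type NPC peak at the promoter. Muc19 had 4 members in repeated sequence and 3007 bp of H2AK119ub1 in wild type ES, 2227 bp in PCGF5-depleted ES, 0 in wild type NPC and 2258 bp in depleted NPC, and Tox2 had 2022, 255, 0 and 296 bp. At Nr4a3, an orphan nuclear receptor gene, and Gm5607 the promoter was marked in wild type NPC as well, with 1765, 1660, 509 and 416 bp at Nr4a3 and 2020, 1099, 789 and 716 bp at Gm5607. One of the 2 members at Gm5607 had the second highest PCGF5-depleted NPC fold, 9.56. A member over a coding exon, 6363 bp from the start of Cilp2, had a fold of 8.69, and another, with Hspb1 as the nearest start, had 8.16.

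There were 10 genes with at least 3 members at a promoter. Besides Dux, Pax7, Ecel1 and Muc19 these were Lhx6, a LIM homeobox factor of interneurons, Nfatc1, Esrrg, Celsr2, Ntng2 and Fcgr3, and each of these 6 had a wild type NPC H2AK119ub1 peak at the promoter, from 146 bp at Ntng2 to 2021 bp at Lhx6. Another 22 genes had 2 members. Of the transcription factors these were Alx4, En1, Foxf2, Nkx2-2, Nkx6-2, Otx1 and Pax2, and of the signalling and neuronal genes Fgf9, Rspo1, Igf2, Grin2c, Grm4, Nrxn2, Pcdh7 and Shank3. The remaining ones were Gm5607, Gm10807, 4933403O03Rik, Tmem132e, Tmem200b, Vstm2b and Znrf4.

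Of the genes that the study followed at these marks, none of Nes, Cdh2, Pou3f2, Nodal, Lefty1 and Lefty2 had a member. Sox1 was not matched in the annotation used here, so whether it had a member is not known. Nes, which encodes the progenitor filament nestin, had 155 bp of H2AK119ub1 in wild type ES, 233 bp in PCGF5-depleted ES, 0 in wild type NPC and 354 bp in depleted NPC, but its ES and NPC peaks did not overlap. Pou3f2, a neural POU factor, had 0, 458, 0 and 751 bp. Nodal, Lefty1 and Lefty2, of the TGF-β superfamily, had no H2AK119ub1 peak at the promoter in any of the 4 lists, and H3K27me3 covered 1379, 1638 and 698 bp of them in wild type NPC and 0 bp of each in PCGF5-depleted NPC. Of the 5 widest peaks of the reverse set, those at Fev, Wt1 and Pax9 lay at promoters, and the widest, 1807 bp, in an intron near Slfn5.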

How the data were processed

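ChIP-seq peak lists of 10 libraries were used, 1 per group. The 6 input libraries, reads and signal were not used here. Per the methods of the study, the authors digested chromatin for the histone marks with micrococcal nuclease and fixed it lightly, added Drosophila chromatin as a spike-in, which does not enter the peak lists, and fixed and sonicated chromatin for Flag. The authors used Trimmomatic to trim, Bowtie2 to align to mm9, Picard to drop duplicates, and MACS2 (2.1.0 in the submitters' processing notes) for peaks of each library. Peaks depend on depth and background, and how reads from repeats were placed is not given in the sources used here.

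Deposited values per peak are a score (10 times the −log10 p-value in histone lists or the −log10 q-value in Flag lists, rounded down), a fold over background (a ratio), and −log10 p and q, left as the authors deposited them.

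Members, lists and families were chosen with earlier results of these data known. Overlap needed 1 bp. Sequence and repeats (24-base words counted over the genome, both strands) came from NCBIM37, and genes from GENCODE M1 (22232 protein-coding names). Members could be named if among the 10 widest, the 10 with the highest PCGF5-depleted NPC fold, at a gene with at least 2 members or at a listed gene; of the listed genes, mainly those without a wild type NPC H2AK119ub1 peak are described. Genes the study followed, peaks at the edge of the rule and the 5 widest reverse peaks are named too. A listed gene that met this rule is not reported here. Overlap, gaps and word counts were tested on simulated data. Python 3.11.15, pandas 2.3.3, scipy 1.17.1 and pysam 0.24.0 were used. Alternatives were another overlap, q-value, score, list length, merging, gap and promoter window. Leaving out the array, repeats or the members at Sfi1 was added after seeing the data.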

Additional observations from a re-analysis of the deposited data

Results flagged for a closer look

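Several values moved in opposite directions from wild type to PCGF5-depleted cells in ES and in NPC. With 1 library per group, none of these differences between ES and NPC was tested. On the chromosome 6 array, the number of H2AK119ub1 peaks differed by -23 in ES and by 87 in NPC, the bases covered by -4761 in ES and 24318 in NPC, and the units marked by -3 in ES and 42 in NPC. The whole ES list was shorter in PCGF5-depleted cells too, with 7170 peaks against 8672, and the array held 1.73% of it against 1.70%, so as a share of the list the ES value did not fall. In NPC the array held 2.57% of the PCGF5-depleted list and 0.209% of the wild type list. The share of members overlapped by H3K27me3 differed by -15.1 percentage points in ES and 17.9 in NPC. Without the array these values were -18.3 and 10.1 percentage points, and in unique sequence -17.7 and 7.32. Over all ES peaks the same differences were -12.4 and 3.78 percentage points, -12.8 and 2.97 without the array, and -10.6 and 0.681 in unique sequence, so opposite directions were not particular to the members. For the reverse set they were -8.45 in ES and -6.64 in NPC. The NPC values of H2AK119ub1 on the array are in part fixed by how members were chosen. The H3K27me3 lists were not used by the rule, but the array was noticed after the values were seen. How far its H3K27me3 values follow from the choice by H2AK119ub1 was not tested. Among the 15 listed genes, promoter bases of H3K27me3 moved in opposite directions in 6 (Adra2a, Bmp6, Fgfr3, Grm4, Irx5 and Smad6). Some of these moves were small. Fgfr3 had 2117 bp in wild type and 2170 bp in PCGF5-depleted ES, and Bmp6 had 2628 and 2738 bp in NPC. The same count over all genes with an ES peak is not given here. Bases of H2AK119ub1 moved in opposite directions in 11, the genes whose ES bases fell, because the NPC direction is fixed by the rule.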

How the results depend on the processing

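No paired analysis was possible because each group had 1 library. Of 67 values under 10 alternatives, 38 stayed within 1.5 times (counts) or the 95% interval (shares, median) of the reported value and 29 did not. The higher-scoring 50% of each list gave 320 members and 354 reverse peaks, merging within 1000 bp 300 and 339, and requiring a gap of 1000 bp to the other NPC list 358 and 309. With 3845 top-scoring peaks in both NPC lists there were 658 members and 524 reverse peaks, so which of the sets was larger depends on list length and on the gap. Excluding repeats left 328 members. H3K27me3 in wild type NPC overlapped 71.1% of members with an overlap of 50%, 72.0% with equal lists, 54.5% with the gap, 72.2% without the array and 84.1% without repeats. In PCGF5-depleted NPC it overlapped 81.0% after merging, 77.9% with the gap and 91.5% without repeats. In wild type ES it overlapped 73.8% with an overlap of 50% and 75.3% without repeats. H2AK119ub1 in PCGF5-depleted ES overlapped 47.7%, 48.5% and 43.9% with an overlap of 50%, without the array and without repeats. Promoters held 34.1% with the gap, 26.8% with a window of 1000 bp, 48.9% without the array and 62.2% without repeats. The median GC content was 61.4% after merging, 61.3% with the gap, 63.5% without the array and 65.1% without repeats. Without the members at Sfi1, Flag-PCGF5 in ES overlapped 0.561%. Causes were not tested. Unknown depth limits the absence of a peak, which may be a weaker signal.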
